A study of Xenopus tropicalis x Xenopus laevis and Xenopus laevis and Xenopus tropicalis with 8 samples.

Results

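The initiation factors described here are the symbols of the deposited transcript table that begin with eif followed by a digit. The table joins the transcripts of 2 frogs, Xenopus laevis and Xenopus tropicalis, and the rule found 102 of 25863 symbols counted within species, 51 in each frog, which together hold 158 of 34647 transcripts. They are 53 different symbols, of which 49 occur in both species. The X. laevis part of the table has no eif2c3 or eif4ebp3, and the X. tropicalis part has no eif1b or eif2b4. Values are TPM, the share of a transcript in its library corrected for its length, summed over the transcripts of a symbol within a species. Most X. laevis symbols stand for more than 1 transcript, 40 of 51 against 4 of 51 in X. tropicalis. As background, X. laevis is an allotetraploid frog that keeps duplicated copies of many genes.

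RNA was taken from whole embryos at stage 9, 9 hours after fertilization, when transcription from the embryo's own genome is starting. The 4 groups were X. laevis embryos, X. tropicalis embryos, and the reciprocal hybrids, le × ts from X. laevis eggs fertilized by X. tropicalis sperm, which are viable, and te × ls from X. tropicalis eggs fertilized by X. laevis sperm, which die as late blastulae. Each group had 2 polyadenylated RNA libraries, numbered 1 and 3 in every group. The series text speaks of 3 biological replicates, but the labels name no clutch or animal. The p-values therefore measure only the spread between these samples, and how far that spread is technical is not known. RNA of whole embryos does not tell fewer cells of a type from less RNA per cell.

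Translation initiation brings the initiator methionyl-tRNA, the small ribosomal subunit and a capped mRNA together and ends when the large subunit joins at the start codon. eIF2 carries the initiator tRNA, eIF2B recharges eIF2 with GTP, eIF3 is the scaffold on the small subunit, and the eIF4 proteins bind the cap and unwind the leader. In frog embryos the RNAs of the egg supply this machinery until the genome becomes active, and cap binding is a known point of control of the stored messages.

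The species of the RNA followed the labels. Summed over 10 egg RNAs, X. laevis transcripts reached 7099 to 8397 TPM in the 4 libraries from X. laevis eggs and 2.42 to 8.23 TPM in the 4 from X. tropicalis eggs, and X. tropicalis transcripts reached 11755 to 13538 TPM in the latter and 16.1 to 29.2 TPM in the former. Transcripts of genome activation genes from the sperm genome were present in both hybrids, at 226 and 112 TPM in sum for le × ts replicates 1 and 3, against 0.377 and 0.253 TPM in X. laevis, and at 118 and 183 TPM for te × ls replicates 1 and 3, against 0.499 and 0.331 TPM in X. tropicalis. Of 10 markers of later tissues, only 3 were in the X. laevis part of the table and 5 in the X. tropicalis part. X. laevis krt5, a keratin, made up most of the X. laevis sum, at 162 to 360 TPM in the libraries from X. laevis eggs. The X. tropicalis sum was 33.2 to 158 TPM in the libraries from X. tropicalis eggs, most of it ins at 27.3 to 136 TPM. Total reads are unknown from TPM. Estimated from the steps of low values, the read number of le × ts replicate 3 was 0.439 times that of the first X. laevis library, and X. tropicalis replicate 3 had 0.323 times that of X. tropicalis replicate 1. For the other libraries the ratio to the replicate 1 library of their egg species was 0.973 to 1.52.

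Initiation factor RNAs made up a little over a percent of the egg species' transcripts in every library. The sum of the X. laevis members was 11408 and 11616 TPM for the X. laevis libraries 1 and 3 and 10985 and 11027 TPM for le × ts, which is 1.10% to 1.16% of all TPM. X. tropicalis members summed to 12235 and 12979 TPM in X. tropicalis replicates 1 and 3 and to 12397 and 13349 TPM in te × ls replicates 1 and 3, or 1.22% to 1.34%. At matched replicate number the sum was lower in le × ts than in X. laevis and higher in te × ls than in X. tropicalis embryos. The median member stood at 123 TPM in X. laevis and 141 TPM in X. tropicalis embryos (mean of 2 libraries for each symbol, n = 51), against 39.9 and 42.6 TPM over all symbols of the species with a mean of 1 TPM or more. At 100 TPM or more stood 29 of 51 X. laevis and 33 of 51 X. tropicalis members, against 26.3% and 26.7% of those symbols.

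The most abundant members were the factors that scan for the start codon. In what follows, 4 values for X. laevis RNAs are in the order X. laevis replicates 1 and 3, then le × ts replicates 1 and 3, and 4 values for X. tropicalis RNAs are in the order X. tropicalis replicates 1 and 3, then te × ls replicates 1 and 3. X. laevis eif1ax, which encodes eIF1A, had 1686, 1509.6, 1634 and 929 TPM. X. laevis eif1, which guards against wrong start codons, had 748, 1117, 653 and 1056 TPM, and its relative eif1b had 827, 1022, 749.8 and 1119.5 TPM. The le × ts replicate 3 library was the lowest for eif1ax, whereas for eif1 and eif1b the replicate 3 libraries of both groups were the higher ones. In X. tropicalis eif1 led with 1954, 1985, 2018 and 2115 TPM, ahead of eif1ax with 1437.5, 1439, 1399.7 and 1465 TPM, and the 4 libraries lay close together for both. eif5, the GTPase-activating protein of eIF2, was the lowest of this role at 102 to 118 TPM in X. laevis RNAs and 123 to 155 TPM in X. tropicalis RNAs.

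**Figure D1:**
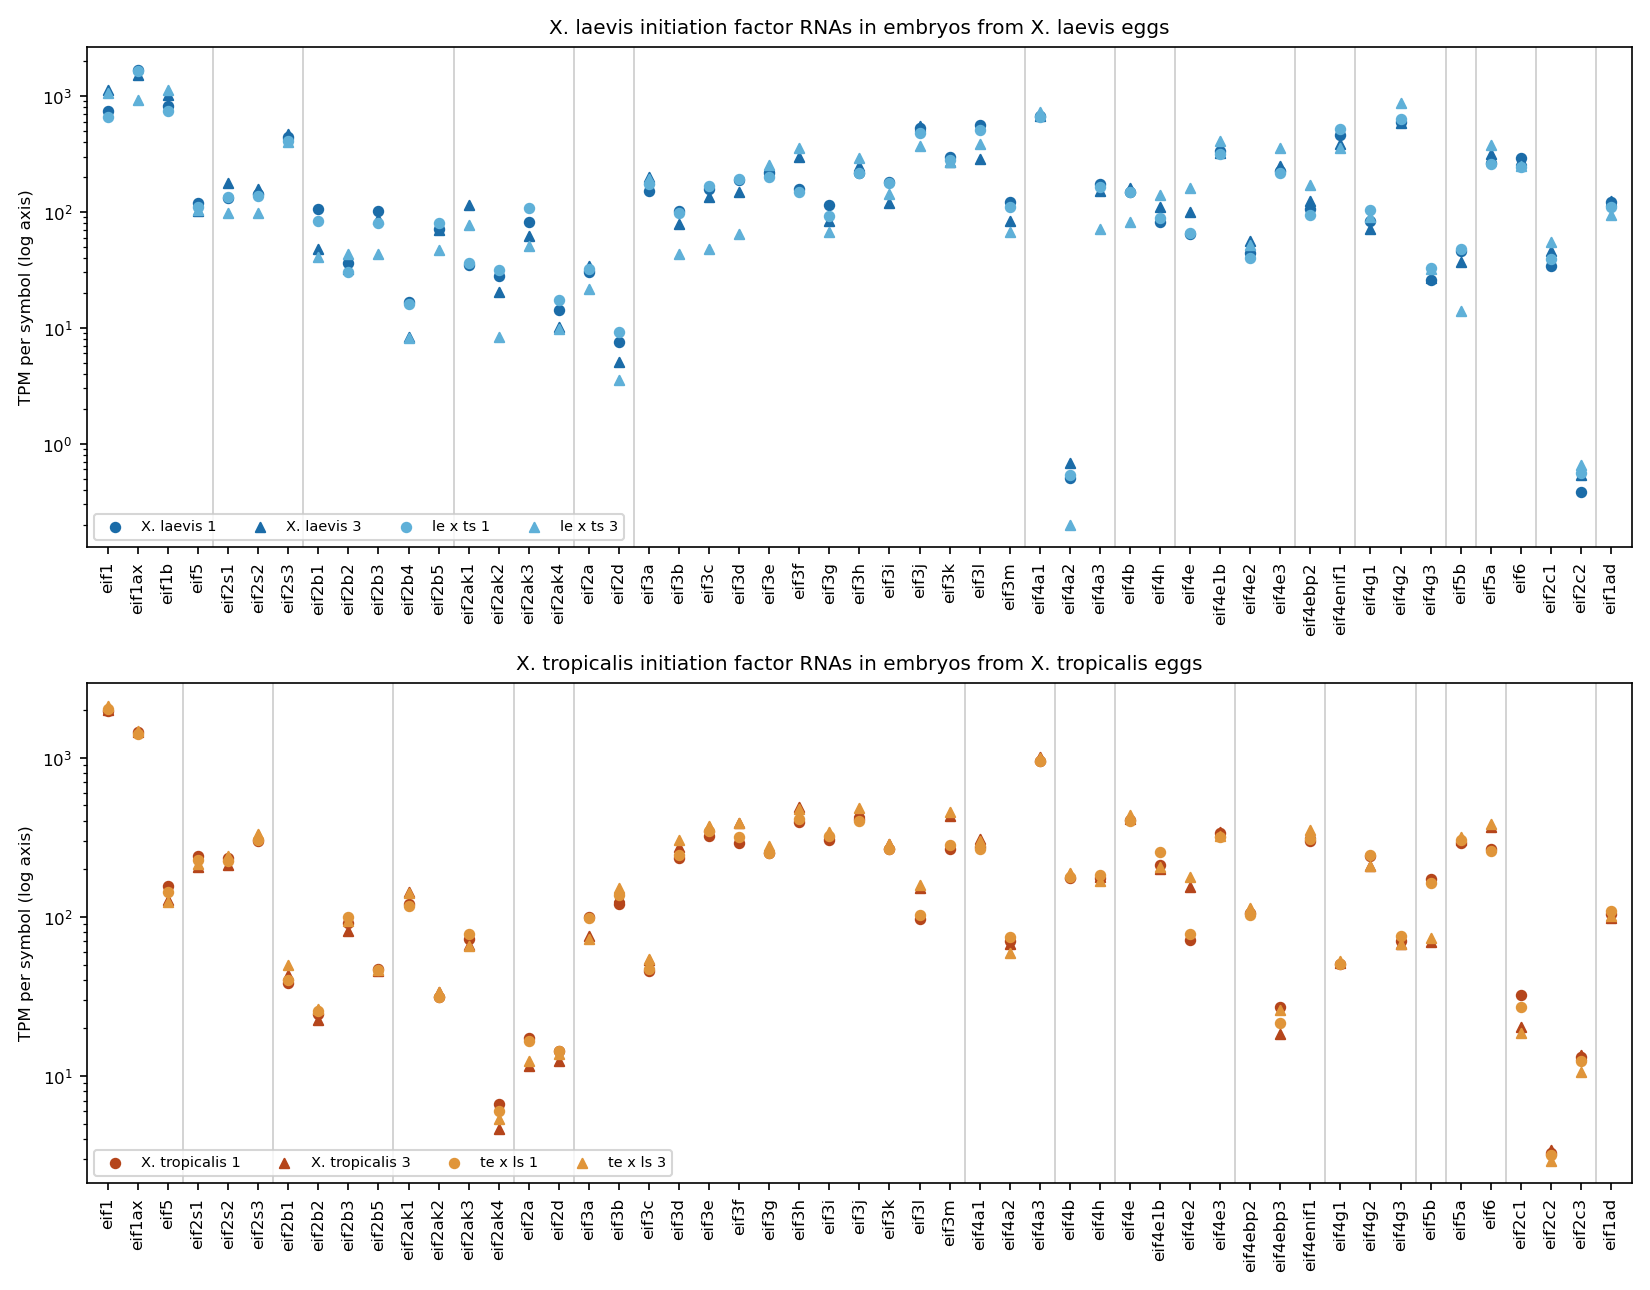
TPM of every initiation factor symbol (log axis) in the libraries from eggs of its own species, X. laevis RNAs above and X. tropicalis RNAs below, with circles for replicate 1, triangles for replicate 3, dark colours for the species and light colours for the hybrids. Symbols are ordered by role, separated by grey lines. X. laevis eif1ax and X. tropicalis eif1 stand highest, X. laevis eif4a2 and eif2c2 lie under 1 TPM, and the X. laevis panel shows le × ts replicate 3 apart for many members.

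Among the helicases and cap-binding factors, X. laevis eif4a1, the DEAD-box helicase of the cap complex, had 675, 678, 664 and 731 TPM. Its close relative eif4a2 was nearly absent from X. laevis RNAs at 0.503, 0.687, 0.532 and 0.200 TPM, and had 70.6, 67.6, 74.4 and 59.0 TPM in X. tropicalis RNAs. In X. tropicalis the helicase with the most RNA was eif4a3, which belongs to the exon junction complex, with 958, 1009.7, 956 and 989 TPM. eif4g2, a scaffold related to eIF4G that cannot bind the cap protein, had 594, 588, 636 and 873 TPM in X. laevis RNAs and was the most abundant eIF4G symbol of both species, at 242, 209, 243 and 209.5 TPM in X. tropicalis. The least abundant was eif4g3 in X. laevis at 25.9 to 33.0 TPM and eif4g1 in X. tropicalis at 50.4 to 52.5 TPM. The cap-binding symbols ranged in X. laevis from eif4e2 at 40.0 to 56.5 TPM to eif4e1b, the form known from oocytes, at 313 to 409 TPM, and in X. tropicalis from eif4e2 at 71.6 to 178 TPM to eif4e at 403, 411, 402 and 436 TPM. Of the proteins that bind eIF4E, eif4enif1, which encodes the transporter 4E-T, led in both, at 356 to 518 TPM in X. laevis and 299 to 349 TPM in X. tropicalis RNAs. The least abundant of these was eif4ebp2 in X. laevis at 94.1 to 172 TPM and eif4ebp3 in X. tropicalis at 18.4 to 27.1 TPM. The helicase cofactors eif4b and eif4h were at 149.8, 160.0, 148 and 82.4 TPM and at 81.7, 111, 87.7 and 140.3 TPM in X. laevis, and at 175 to 187 and 167 to 183 TPM in X. tropicalis RNAs.

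The 13 eIF3 subunits summed to 3007, 2744, 2849 and 2549 TPM in X. laevis RNAs and to 3099.7, 3700.4, 3223 and 3809 TPM in X. tropicalis RNAs. Subunits of the complex did not have equal RNA levels. In X. laevis they ran from eif3b at a mean of 89.8 TPM to eif3j, a loosely bound subunit, at 539.5 TPM, a 6.01-fold range. In X. tropicalis the lowest was eif3c at 49.7 TPM, and eif3a was next at 87.5 TPM. The eif3c sum includes a transcript that also had RNA in X. laevis libraries. The highest was eif3h at 439 TPM, 8.83-fold above eif3c, and eif3j followed at 431 TPM. eif3m, eif3e and eif3f, at 347, 346 and 338 TPM, were also among the 10 most abundant X. tropicalis members, as was the cap-binding eif4e3 at 338 TPM. X. laevis eif3l, at 424 TPM, was also among the 10 most abundant X. laevis members, as were eif2s3 at 455 TPM and eif4enif1 at 422 TPM.

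For the initiator tRNA, the gamma subunit gene eif2s3 was the most abundant of the eIF2 genes in both species, at 439, 470.0, 413 and 402 TPM in X. laevis and 301, 326, 303 and 329 TPM in X. tropicalis RNAs. The other subunit genes, eif2s1 and eif2s2, were both within 97.3 to 178 TPM in X. laevis RNAs and within 204 to 239.5 TPM in X. tropicalis RNAs. eIF2B RNAs were lower, from X. laevis eif2b4 at 16.6, 8.36, 16.1 and 8.23 TPM up to eif2b3 at 103, 87.2, 80.3 and 43.3 TPM, and from X. tropicalis eif2b2 at 22.3 to 26.2 TPM up to eif2b3 at 81.3 to 100.3 TPM. Of the kinases that shut eIF2 off by phosphorylating its alpha subunit, eif2ak1 had the highest mean, at 74.6 TPM in X. laevis and 131 TPM in X. tropicalis embryos, and eif2ak4, the kinase that senses uncharged tRNA, the lowest, at 12.2 and 5.65 TPM. In X. laevis RNAs that order turned with the replicate number, since eif2ak1 had 34.7 and 36.3 TPM in the replicate 1 libraries of X. laevis and le × ts, under the 81.7 and 108 TPM of eif2ak3, the kinase of the endoplasmic reticulum. The alternative tRNA factors eif2a and eif2d were at 32.1 and 6.30 TPM in X. laevis and 14.4 and 13.4 TPM in X. tropicalis embryos. eif5b, the GTPase of subunit joining, had 41.7 and 122 TPM, and eif5a and eif6, which act on elongation and the large subunit, had 289 and 286 TPM in X. laevis and 296 and 316 TPM in X. tropicalis embryos. The rule also takes in eif1ad, at 123 and 101 TPM, and the older symbols of Argonaute genes, whose products carry small RNAs and are no initiation factors. Of these, eif2c1 was the most abundant at 40.3 and 26.4 TPM and eif2c2 the least at 0.462 and 3.34 TPM, and X. tropicalis eif2c3 had 13.4 TPM.

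By the paper's methods reads were assigned to species by exact and unique match, although the tool behind the deposited values is not settled. Most members had little signal in the libraries of the other species. In the libraries of the other species, 22 of 51 X. laevis members and 8 of 51 X. tropicalis members were listed at 0 in both. The median member there had 0.0215% of its own level in X. laevis and 0.0985% in X. tropicalis RNAs. The other species' libraries both held at least 1 TPM of 2 of 51 X. laevis members (3.92%, against 0.646% of all X. laevis symbols) and of 4 of 51 X. tropicalis members (7.84%, against 1.40% of all X. tropicalis symbols).

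X. laevis eif1b was the largest of these. It had 98.8 and 116 TPM in X. tropicalis replicates 1 and 3 and 98.7 and 118 TPM in te × ls replicates 1 and 3, nearly all of it in 1 of its transcripts (TeperekTkacz201206_000324368), so a value of this symbol in te × ls cannot be told apart from background. X. laevis eif5a had 4.74 and 6.13 TPM in X. tropicalis and 5.49 and 3.70 TPM in te × ls. X. tropicalis eif3c had 21.3 and 21.3 TPM in X. laevis replicates 1 and 3, 21.7 TPM in le × ts replicate 1 and 125 TPM in le × ts replicate 3, again in 1 transcript (BarbosaMorais2012_XENTRliver_n000023711), which had only 27.2 to 31.1 TPM in the libraries from X. tropicalis eggs. The le × ts replicate 3 library therefore held more of this transcript than any X. tropicalis library. Among the libraries from X. laevis eggs, X. laevis eif3c was at its lowest there, 47.5 TPM. That was not particular to eif3c, since X. laevis eif3d (64.5 TPM) and eif5b (14.0 TPM) were also lowest there. Other members went the other way, such as eif3f, which was highest there at 356 TPM. A link between the X. tropicalis transcript and X. laevis eif3c was not tested. The other 3 X. tropicalis members were eif1 at 2.04 and 3.38 TPM, eif1ax at 1.61 and 2.85 TPM and eif2b1 at 2.79 and 1.62 TPM in X. laevis.

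**Figure D2:**
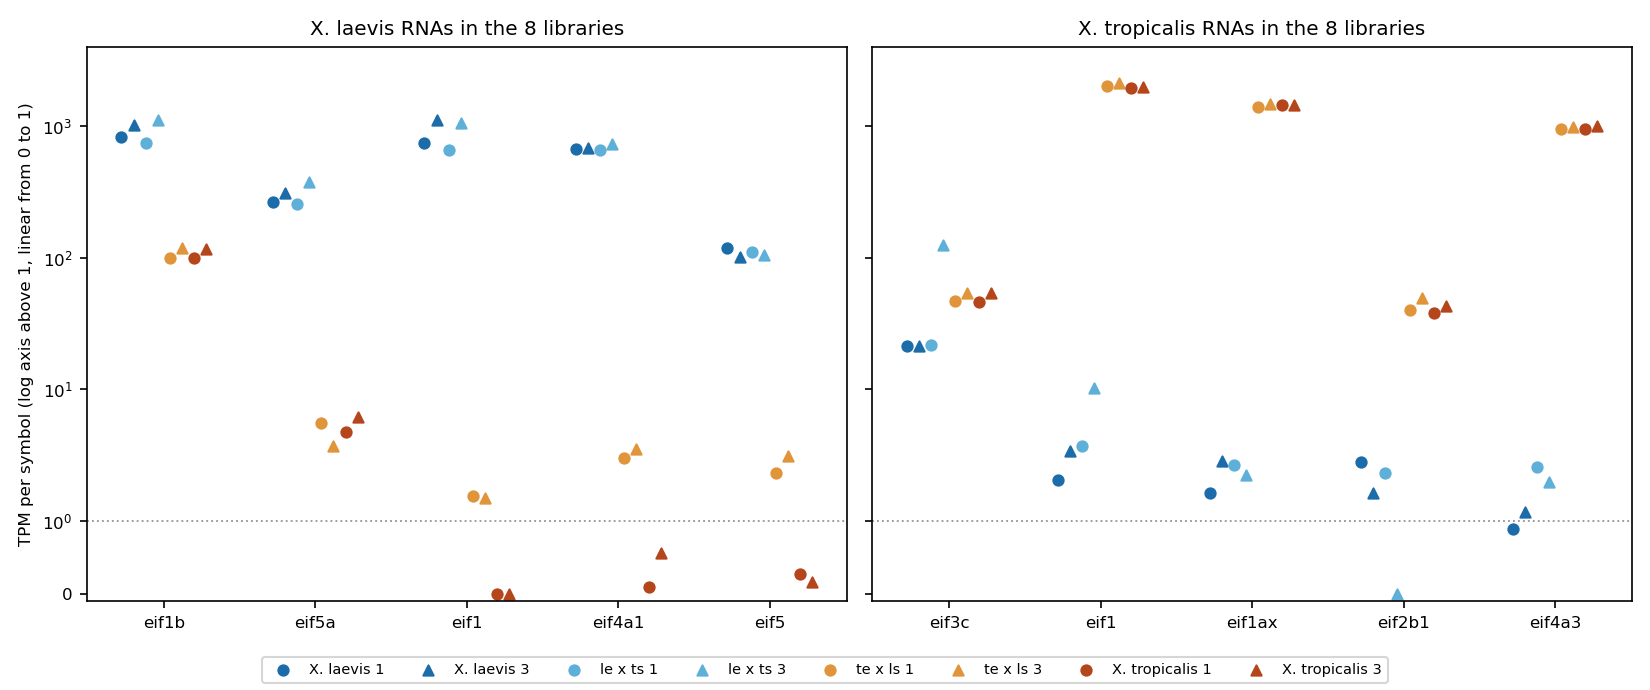
TPM of 5 X. laevis and 5 X. tropicalis symbols in all 8 libraries (log axis above 1 TPM, linear from 0 to 1 TPM, dotted line at 1 TPM), with circles for replicate 1 and triangles for replicate 3. X. laevis eif1b and eif5a and X. tropicalis eif3c, eif1, eif1ax and eif2b1 have RNA above 1 TPM in both libraries of the other species. X. laevis eif1, eif4a1 and eif5 pass 1 TPM in both te × ls libraries and in neither X. tropicalis library.

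A few X. laevis initiation factor symbols were detected at a low level in te × ls embryos. Members that reached 1 TPM in each te × ls library and were under 1 TPM in both X. tropicalis libraries numbered 3 of 51 X. laevis symbols (5.88%), while 2.74% of all 13011 X. laevis symbols met this rule. With the groups exchanged 0 members and 0.00769% of all symbols met it. X. laevis eif4a1 had 3.0 and 3.53 TPM in te × ls replicates 1 and 3 and 0.091 and 0.564 TPM in X. tropicalis replicates 1 and 3. X. laevis eif5 had 2.31 and 3.13 TPM against 0.273 and 0.167 TPM, and X. laevis eif1 had 1.53 and 1.499 TPM against 0 and 0 TPM. All 3 were at 0.163% to 2.47% of their level in X. laevis embryos. Other X. laevis members did not meet the rule, and the X. laevis members together had 120 and 137 TPM in te × ls against 107 and 127 TPM in X. tropicalis, most of it eif1b.

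In limma, with 482 X. laevis symbols tested in te × ls against X. tropicalis, 13.3% were called higher and 0% lower, a call being an adjusted p (Benjamini-Hochberg over all symbols) under 0.05 with a change above 2-fold on the log2(TPM + 1) scale. Of the 5 X. laevis members tested 0 were called. An unadjusted p under 0.05 was reached by 3 members, eif1, eif4a1 and eif5, and by 74.7% of the 482 symbols. Their log2 differences were 1.33 ± 0.22 for eif1, 1.70 ± 0.29 for eif4a1 and 1.60 ± 0.25 for eif5 (SE, n = 2 and 2), with adjusted p of 0.171, 0.173 and 0.140 in limma, and the median over the 482 symbols was 1.49. These 3 passed the filter of 1 TPM in 2 libraries only through te × ls and are those the detection rule picked, so their differences and p-values are a description.

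By the same rule 0 of 51 X. tropicalis initiation factor symbols were detected only in le × ts embryos, against 1.27% of all 12852 X. tropicalis symbols, and 0 members and 0.0156% of all symbols with the groups exchanged. Of 465 X. tropicalis symbols tested in le × ts against X. laevis, 0% were called higher, 0% lower, and 31.2% were higher at an unadjusted p under 0.05. This fit called no symbol at all, not even X. tropicalis ventx2, a genome activation gene. It had 57.6 and 24.8 TPM in le × ts replicates 1 and 3 against 0.140 and 0.125 TPM in X. laevis. The 0 calls therefore do not show equal levels. All 5 members among the 465 symbols had an unadjusted p above 0.05, so 0 were called. Their log2 differences went both ways, with a median of 0.69, while the median over the 465 symbols was 0.44. X. tropicalis eif1 had 3.68 and 10.2 TPM in le × ts replicates 1 and 3 against 2.04 and 3.38 TPM in X. laevis, and eif4a3 had 2.55 and 1.96 TPM against 0.879 and 1.16 TPM. Both were higher in each hybrid library, by 0.99 ± 0.57 and 0.69 ± 0.42 on the log2 scale (SE, n = 2 and 2). eif3c had a log2 difference of 1.26 and eif1ax of 0.12, and eif2b1 was at -0.79, with 2.31 and 0 TPM in le × ts against 2.79 and 1.62 TPM in X. laevis.

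Among the egg species' RNAs, no initiation factor was called different between a hybrid and its egg species. In le × ts against X. laevis embryos, 49 of 51 X. laevis members passed the filter of 1 TPM in 2 libraries (all but eif4a2 and eif2c2), and limma called 0 higher and 0 lower, with 0 at an unadjusted p under 0.05. Over all 11061 X. laevis symbols 0% were called in either direction, and 0.00904% were higher and 0.172% lower at that unadjusted p. As this fit called no symbol of either species, its 0 calls among the members do not show equal levels. It left the replicate number out, although deviations of equally numbered X. laevis and le × ts libraries correlated at 0.753. That can widen its standard errors and raise its p-values. The median log2 difference was -0.05 over the members and 0.01 over all symbols. A hybrid's mean level was between 65.1% and 137% of that in X. laevis embryos for these members.

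Some members had hybrid libraries on 1 side of both X. laevis libraries. All 3 eIF4G scaffolds were higher in both hybrid libraries, eif4g1 at 103 and 90.8 against 83.6 and 70.7 TPM, eif4g2 at 636 and 873 against 594 and 588 TPM, and eif4g3 at 33.0 and 32.4 against 25.9 and 26.9 TPM. Their log2 differences were 0.33, 0.33 and 0.30, with an adjusted p of 0.99998 in limma for each. They were the only 3 of 49 members apart in this direction (6.12%), where 10.5% of all symbols were. Lower in both hybrid libraries were 7 members (14.3%, against 7.95% of all symbols), eif1ad, eif2b3, eif2s2, eif2s3, eif3j, eif4b and eif6. The largest difference among them was that of eif2b3, the gamma subunit of eIF2B, with 80.3 and 43.3 TPM in le × ts against 103 and 87.2 TPM in X. laevis, a log2 difference of -0.67 ± 0.36 (SE). For eif4b it was -0.48, with 148 and 82.4 TPM against 149.8 and 160.0 TPM, for eif2s2 -0.38 and for eif3j -0.36, each with an adjusted p of 0.99998 in limma. The lower of the hybrid libraries was replicate 3 in all 4.

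In te × ls against X. tropicalis embryos the libraries were closer together. All 51 X. tropicalis members were tested, 0 were called and 0 had an unadjusted p under 0.05. Of all 10775 X. tropicalis symbols 0% were called higher, 0% lower, and 0.121% were higher and 1.21% lower at that unadjusted p. The 0 calls among the members do not show equal levels here either. This fit also left the replicate number out, and the same correlation was 0.838 for X. tropicalis and te × ls. The members' median log2 difference was 0.02 and that of all symbols -0.01, and a hybrid's mean level was 85.7% to 114% of that in X. tropicalis embryos. Higher in both hybrid libraries were 5 members (9.80%, against 6.96% of all symbols), eif1, eif2b2, eif2b3, eif3b and eif5a, and lower in both were 3 (5.88%, against 10.2%), eif2c2, eif2c3 and eif4e3. The largest was eif2c3, with 12.4 and 10.5 TPM in te × ls against 13.2 and 13.6 TPM, a log2 difference of -0.21 ± 0.19 (SE). Next was eif3b, a core subunit of eIF3, with 137 and 151 against 120 and 133 TPM, at 0.19 ± 0.11. eif2b3 had 100.3 and 93.5 against 91.8 and 81.3 TPM, at 0.16, eif2b2 had 0.15, eif2c2 had -0.10 and eif4e3, a cap-binding protein, had -0.08. Each had an adjusted p of 0.99983 in limma.

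Between the species, 17 of 49 members were called different, among them the Argonaute gene eif2c2. X. laevis and X. tropicalis embryos were compared over the symbols present in both, with each species' own sum. Across the 49 members the log2(TPM + 1) levels of the species had a Pearson r of 0.79 and a Spearman rho of 0.78 (a description, since genes are not replicates), against a Pearson r of 0.72 over 9656 symbols, and 32 of 49 members lay within 2-fold on the log2(TPM + 1) scale. By limma 6 of 49 members were called higher in X. laevis (12.2%) and 11 higher in X. tropicalis (22.4%). Of all 9476 symbols tested, 21.9% were called higher in X. laevis and 21.2% higher in X. tropicalis. The median log2 difference, X. laevis minus X. tropicalis, was -0.21 for the members and 0.02 for all symbols.

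Higher in X. laevis embryos were the scaffold eif4g2, the helicase eif4a1, the eIF3 subunits eif3a, eif3c and eif3l, and eif2a. eif4g2 had 594 and 588 TPM in X. laevis against 242 and 209 TPM in X. tropicalis, each pair with replicate 1 before replicate 3, a log2 difference of 1.39 ± 0.14 (SE, n = 2 and 2) with an adjusted p of 3.9e-04 in limma. eif4a1 had 675 and 678 against 275 and 307 TPM, at 1.22 ± 0.13. For eif3l the values were 565 and 283 against 96.8 and 152 TPM, at 1.72 ± 0.36, so the groups did not overlap although the libraries of each group were far apart. eif3c had 159 and 133 against 45.8 and 53.5 TPM, at 1.54 ± 0.19, eif3a had 151 and 201 against 99.7 and 75.3 TPM, at 1.002 ± 0.22, and eif2a had 30.4 and 33.9 against 17.4 and 11.5 TPM, at 1.13 ± 0.31. The X. tropicalis eif3c values include the transcript that also had RNA in X. laevis libraries.

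Higher in X. tropicalis embryos were the helicases eif4a2 and eif4a3, the cap-binding genes eif4e and eif4e2, the eIF3 subunits eif3g, eif3i and eif3m, and eif1, eif4g3, eif5b and eif2c2. eif4a2 had 70.6 and 67.6 TPM in X. tropicalis and 0.503 and 0.687 TPM in X. laevis embryos, a log2 difference of -5.46 ± 0.31 on the log2(TPM + 1) scale, with an adjusted p of 8.5e-05 in limma. eif4a2 and eif2c2 passed the filter only through X. tropicalis. eif4a3 had 958 and 1009.7 against 172 and 151 TPM, at -2.60 ± 0.14. eif4e, the main cap-binding protein, had 403 and 411 against 64.7 and 99.3 TPM, at -2.33 ± 0.22. For these 3 the difference between the species was several times the distance between replicates. The eIF3 subunits eif3m, eif3g and eif3i had -1.72, -1.41 and -1.10, eif4g3 had -1.35, eif1 had -1.11, eif2c2 had -1.57, eif5b had -1.39 and eif4e2 had -1.06, and adjusted p lay between 0.0013 and 0.044 for these 8. For eif1 the values were 1954 and 1985 TPM in X. tropicalis against 748 and 1117 TPM in X. laevis embryos. X. laevis embryos also had 827 and 1022 TPM of its relative eif1b, a symbol that the X. tropicalis part lacks. The part of naming in the eif1 difference was not tested. Of the 13 eIF3 subunits 3 were called higher in each species and 7 were not called, close to the shares of all symbols called in each direction (21.9% and 21.2%).

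The groups did not overlap for 25 more of the 49 members that were not called (51.0%, against 37.4% of all symbols tested), and the 6 with the largest differences were eif2ak1 at a log2 difference of -1.04, eif2d at -0.998, eif2ak4 at 0.99, eif3h at -0.91, eif4h at -0.87 and eif2b1 at 0.79. Where X. laevis had several transcripts, summing mattered. With the most abundant transcript alone in each species, 3 members were called higher in X. laevis and 18 higher in X. tropicalis. This setting leaves out RNA mainly in X. laevis. Of its named symbols 6298 of 11785 have 2 or more transcripts, against 946 of 11679 in X. tropicalis. The share of all symbols called under this setting is not given here, so the shift is not read as particular to the members. The members eif2a, eif3a, eif4a1 and eif4e2 lost their calls, at log2 differences of 0.51, 0.03, 0.43 and -0.58. Leaving out 1 library, which leaves its group with 1 library that is assumed to vary like the other group, also ended calls. Without X. laevis replicate 3 eif2a (1.05), eif3a (0.80), eif3i (-0.79), eif4e2 (-1.24) and eif5b (-1.23) were not called, and without X. laevis replicate 1 eif1 (-0.82) and eif4e2 (-0.89) were not. Without X. tropicalis replicate 3 eif2a (0.85), eif3a (0.80) and eif4e2 (-0.51) were not called. Without X. tropicalis replicate 1 eif5b (-0.73) was not, while eif4e2 reached -1.61. The called members eif4a2 and eif2c2 could not be tested without either X. tropicalis library. They reached 1 TPM only in X. tropicalis, so they then failed the filter. Without X. laevis replicate 3 the differences of eif2a, eif4e2 and eif5b stayed above 2-fold and their adjusted p was 0.061, 0.061 and 0.090 in limma.

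**Figure D3:**
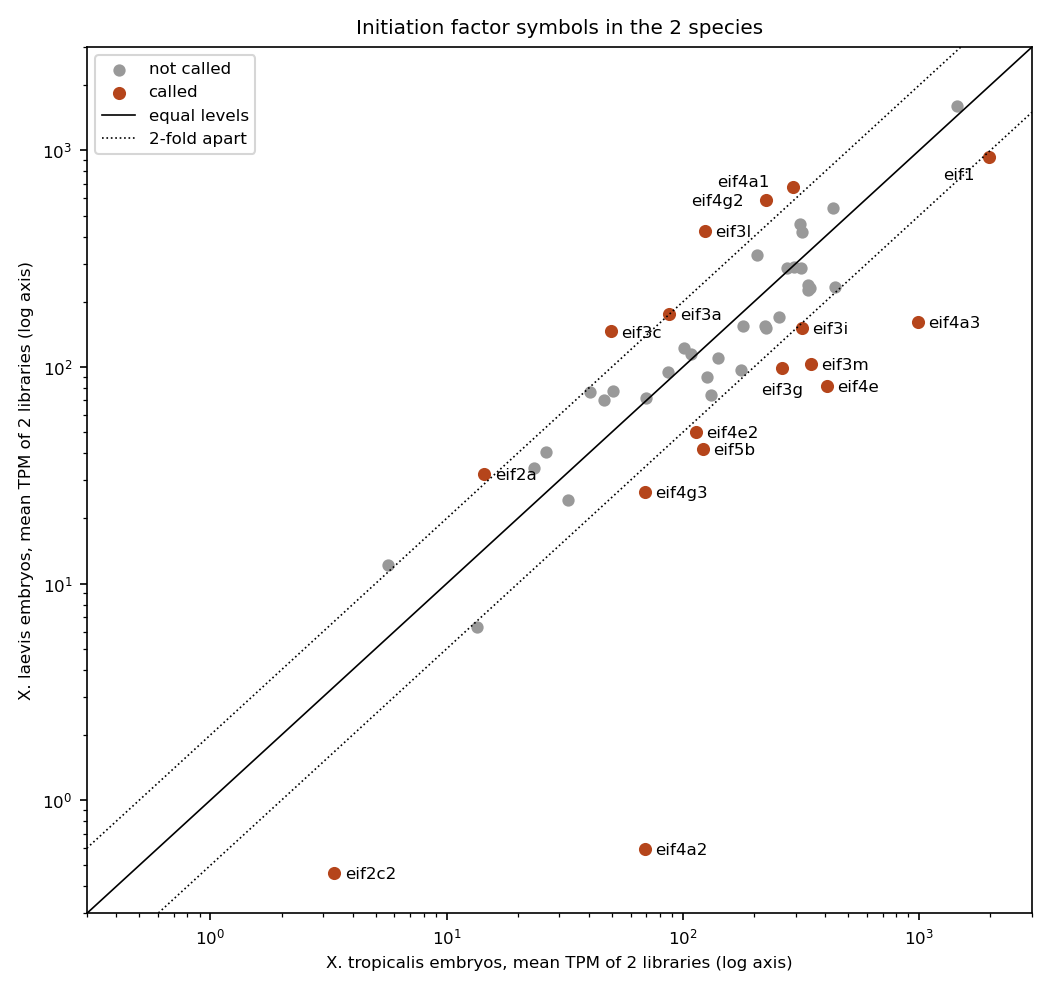
Mean TPM of the 49 shared initiation factor symbols in X. laevis embryos (vertical, log axis) against X. tropicalis embryos (horizontal, log axis), each the mean of 2 libraries, with the 17 called symbols named. The solid line marks equal levels and the dotted lines 2-fold. Of the called symbols 6 lie above and 11 below the diagonal, eif4a2 farthest from it.

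Among the RNAs of the egg species, members were called within an egg species only for the replicate number, which the labels do not explain. For embryos from X. laevis eggs, replicate 3 was compared with replicate 1 over X. laevis and le × ts libraries with the group as a covariate, and the same was done for X. tropicalis eggs with X. tropicalis and te × ls libraries. The standard errors and p-values of this test measure only how alike the shift was in the species and its hybrid. Equally numbered libraries deviated together, with correlations of 0.753 and 0.838, and may not be independent. The p-values can then be too small. Genome activation genes, taken as a sum, also moved with the number. Their X. laevis transcripts summed in X. laevis embryos to 594 (replicate 1) and 397 TPM (replicate 3), and in le × ts embryos to 304 and 201 TPM. Their X. tropicalis transcripts summed to 423 and 886 TPM in X. tropicalis replicates 1 and 3 and 150.4 and 367 TPM in te × ls replicates 1 and 3. The sum was thus lower in replicate 3 from X. laevis eggs and higher in replicate 3 from X. tropicalis eggs, and its part in the differences below was not tested. Single genes did not all move with the sum. From replicate 1 to 3 of X. laevis embryos, X. laevis ventx2 went from 267 to 119 TPM and mix1 from 5.51 to 11.7 TPM.

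In embryos from X. laevis eggs limma called 2 of 49 members higher in replicate 3 (4.08%) and 3 lower (6.12%), where 4.56% of all symbols were called higher and 7.93% lower. At an adjusted p under 0.05 with any fold, 3 members (6.12%) were higher and 10 (20.4%) lower, against 8.57% and 15.1% of all symbols. The kinase gene eif2ak1, whose product is known to respond to heme, had 34.7 and 36.3 TPM in the replicate 1 libraries of X. laevis and le × ts and 114 and 77.8 TPM in their replicate 3 libraries, a log2 difference of 1.38 ± 0.24 (SE) with an adjusted p of 5.9e-04 in limma. Another kinase of eIF2, eif2ak2, which is activated by double-stranded RNA, went the other way, with 28.01 and 31.7 against 20.4 and 8.37 TPM, at -1.12 ± 0.29. The eIF2B subunit gene eif2b1 had 105 and 84.2 against 47.7 and 41.2 TPM, at -1.07 ± 0.23. For eif2ak1 and eif2b1 both groups showed the direction, with the larger difference of eif2ak1 in X. laevis embryos, whereas for eif2ak2 most of it came from le × ts.

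Of the eIF3 subunits in X. laevis RNAs, eif3f rose and eif3c fell. eif3f had 158 and 149 TPM in the replicate 1 libraries and 298 and 356 TPM in the replicate 3 libraries, at 1.08 ± 0.23, and eif3c had 159 and 168 against 133 and 47.5 TPM, at -1.03 ± 0.30. Most of the eif3c difference came from le × ts replicate 3, the library in which the X. tropicalis eif3c transcript stood at 125 TPM, and the part of that transcript in the difference was not tested. Lower at an adjusted p under 0.05 with a smaller change were eif3d (-0.96), eif3b (-0.76) and eif3l (-0.70), so 4 of 13 subunits were lower and 1 higher by that rule. Members outside eIF3 with smaller changes were eif5b (-0.9995), eif2b4 (-0.90), eif2d (-0.82) and eif2ak3 (-0.74), which were lower, and eif4e (0.94), which had 64.7 and 65.7 against 99.3 and 159.5 TPM. The distance between replicates was larger in le × ts. More than 2-fold apart between replicates were 12 of 49 members in le × ts and 2 of 49 in X. laevis embryos, against 20.8% and 10.5% of all symbols, and 37 of 49 members (75.5%) had replicate 3 on the same side of replicate 1 in both groups, as did 75.0% of all symbols. The median log2 difference of all X. laevis symbols was -0.13, and -0.01 after quantile normalization, under which all 3 calls of lower members were lost (log2 differences of -0.96, -0.92 and -0.91 for eif2ak2, eif2b1 and eif3c) and 3 members, eif2ak1, eif3f and eif4e, were called higher. Of all 11061 X. laevis symbols tested, 1381 were called before that normalization, 36.5% of them higher. After it 1278 were called, 54.5% of them higher. The member counts after it are not read as a result about the members.

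In embryos from X. tropicalis eggs the replicates were closer, and the same test called 1 of 51 members higher and 1 lower (1.96% each, against 3.07% and 2.14% of all symbols). The cap-binding gene eif4e2, known in other animals as a repressor of translation, had 71.6 and 77.6 TPM in the replicate 1 libraries of X. tropicalis and te × ls and 155 and 178 TPM in their replicate 3 libraries, a log2 difference of 1.14 ± 0.05 (SE) with an adjusted p of 2.2e-04 in limma. eif5b had 174 and 164 against 69.7 and 73.5 TPM, at -1.23 ± 0.06 with an adjusted p of 2.5e-04. Groups of replicates did not overlap for either gene.

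With any fold, 17 of 51 X. tropicalis members (33.3%) were higher in replicate 3 at an adjusted p under 0.05 and 9 (17.6%) lower, where 20.6% of all symbols were higher and 26.4% lower. The eIF3 subunits made up 10 of the 17, all but eif3a, eif3i and eif3k, and eif3a was lower. The largest of these changes was that of eif3m, with 266 and 284 TPM in the replicate 1 and 428 and 458 TPM in the replicate 3 libraries, at 0.69 ± 0.03, followed by eif3l with 96.8 and 102 against 152 and 158 TPM, at 0.63 ± 0.04. eif3a, the largest subunit of the complex, had 99.7 and 98.1 against 75.3 and 72.0 TPM, at -0.42 ± 0.05. Outside eIF3, eif6, which keeps the large subunit from joining too early, was higher (0.52), and eif2c1 (-0.58) and eif2a (-0.47) were lower. Of 51 members 45 (88.2%) had replicate 3 on the same side of replicate 1 in X. tropicalis and te × ls, as did 83.3% of all symbols.

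**Figure D4:**
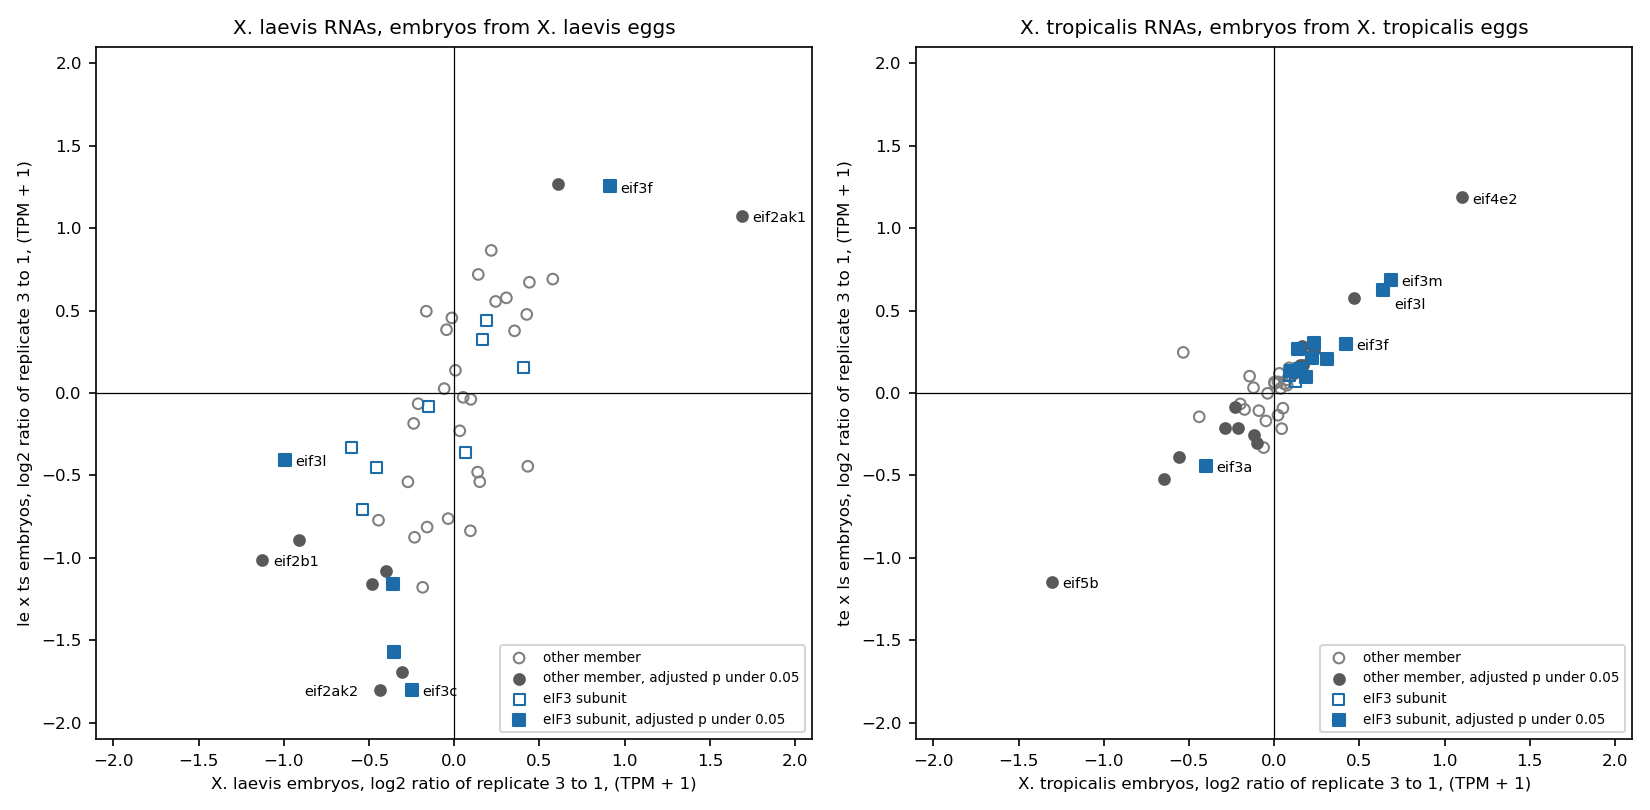
Log2 ratio of replicate 3 to replicate 1, computed on TPM + 1, for each tested member in the hybrid (vertical) against the egg species (horizontal), X. laevis RNAs at left and X. tropicalis RNAs at right. Blue squares are eIF3 subunits, circles other members, and filled symbols have an adjusted p under 0.05 in limma. In the X. tropicalis panel the filled eIF3 subunits lie to the upper right except eif3a, and in the X. laevis panel most of the filled ones lie to the lower left.

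Symbols with several X. laevis transcripts could be followed transcript by transcript, although the table does not say which transcripts are duplicated genes and which are forms of the same gene. In 36 of 40 such symbols the same transcript was the most abundant in all 4 libraries from X. laevis eggs. Over all 40 symbols, the transcript with the highest mean held a median of 67.6% of the symbol's RNA, from 40.8% to 91.4%. Its share moved by a median of 7.84 percentage points over the libraries and by over 20 points in 6 symbols, of which eif4a2, with a range of 47.9 points, had a sum of only 0.200 to 0.687 TPM. In eif2s1, the alpha subunit of eIF2, 1 transcript held 75.9%, 55.7%, 73.2% and 46.3% of the RNA. The other transcript had 31.7 and 35.6 TPM in the replicate 1 libraries of X. laevis and le × ts. It had 78.8 and 52.4 TPM in their replicate 3 libraries. In le × ts the first transcript also fell, from 97.5 to 45.2 TPM, and was then below the other. In eif5 the leading transcript had 60.3, 65.1, 61.2 and 81.1 TPM while the other had 58.1, 37.0, 48.5 and 23.7 TPM.

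Tested singly, 12 of 96 X. laevis member transcripts were called between replicates 3 and 1, while 13.4% of all 17044 X. laevis transcripts were, and 2 of 55 X. tropicalis member transcripts, while 5.84% of 11559 were. The rise of X. laevis eif3f was larger in the transcript with 73.9 and 66.3 TPM in the replicate 1 and 184 and 236 TPM in the replicate 3 libraries, at 1.56 ± 0.24 on the log2 scale, than in the other, which had 83.7 and 82.5 against 114 and 120 TPM. In eif3m 1 transcript was called, with 59.6 and 48.6 against 23.6 and 23.5 TPM (-1.16 ± 0.23). The other had 63.1 and 61.8 against 60.7 and 43.7 TPM (-0.27 ± 0.24) and was not called. The difference between these transcripts was not tested. X. laevis eif1b had 1 transcript that was called, with 113 and 96.2 against 217 and 316 TPM (1.32 ± 0.26). In X. tropicalis the rise of eif4e2 was that of 1 transcript, which went from 24.5 and 29.4 to 110.1 and 123 TPM (2.08 ± 0.06), while the other had 47.1 and 48.2 against 44.7 and 54.7 TPM.

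**Figure D5:**
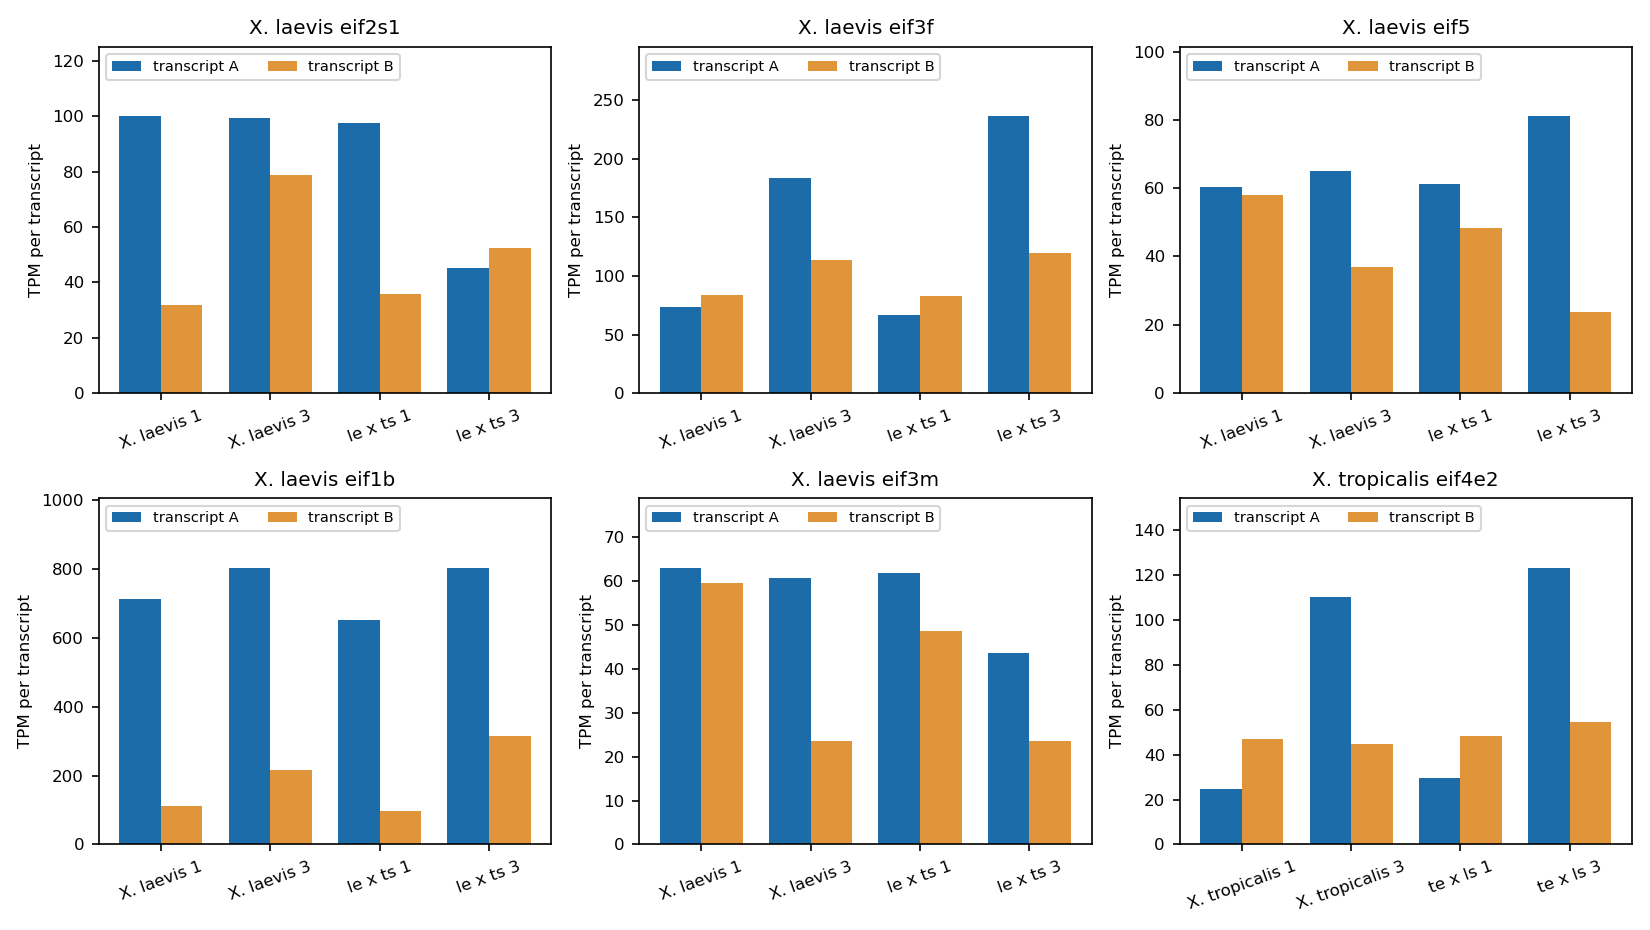
TPM of both transcripts of 5 X. laevis symbols and of X. tropicalis eif4e2 in the libraries from eggs of their species, blue for the transcript with the higher mean (A) and orange for the other (B). The share of transcript A of eif2s1 is lower in replicate 3, and transcript A of eif3f and of X. tropicalis eif4e2 is higher in replicate 3 in both groups.

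Partners of the initiation factors were taken as a list of 25 genes that includes poly(A)-binding proteins, cap-binding regulators, release and recycling factors and signalling kinases. Of 22 tested, 0 were called in le × ts against X. laevis and 0 of 22 in te × ls against X. tropicalis. In both comparisons 0% of all symbols of the egg species were called. Between the species, 6 of 23 were called higher in X. laevis (eef2k, mcts1, mknk2, paip1, paip2b and ppp1r15b) and 2 higher in X. tropicalis (mtor and pabpc4), against 21.9% and 21.2% of all symbols. Of these eef2k and pabpc4 passed the filter only through the species in which they were high. paip2b, an inhibitor of the poly(A)-binding protein, had 1093 and 1312 TPM in X. laevis and 204 and 226 TPM in X. tropicalis embryos, and ppp1r15b, which directs the removal of phosphate from eIF2, had 132 and 98.8 against 7.34 and 8.97 TPM. In replicate 3 from X. laevis eggs, cpeb1, a regulator of stored egg RNAs, and eef2k were called higher and dhx29 lower of 22, against 4.56% and 7.93% of all symbols. From X. tropicalis eggs 0 of 22 were called, with 4 higher and 9 lower at an adjusted p under 0.05 at any fold, against 20.6% and 26.4% of all symbols. cpeb1 had 279 and 256 TPM in the replicate 1 and 459.8 and 789 TPM in the replicate 3 libraries of X. laevis and le × ts.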

How the data were processed

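Polyadenylated RNA of whole embryos was measured in 8 libraries of 4 groups, 2 per group. The authors mapped paired reads of 100 bases with Bowtie, without mismatches and to unique targets only, to a combined transcript database of both species, and deposited TPM computed with RSEM for each transcript and library. The submitters' processing notes name BWA 0.7.10 instead, and which tool made the deposited values is not settled here. Under a unique match, reads shared by near-identical copies would be lost, and this loss can differ between symbols and species. The authors tested reads with edgeR, which could not be applied to TPM.

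TPM were summed by symbol within species. Groups came from the labels, and no column was left unassigned. limma 3.58.1 in R 4.3.3 (lmFit, eBayes with a mean trend) was run on log2(TPM + 1) of all symbols that reached 1 TPM in 2 of the fitted libraries, with Benjamini-Hochberg adjustment over all of them, and called symbols had an adjusted p under 0.05 and an absolute log2 difference above 1. The script was tested on simulated data. Relative read numbers are medians over transcripts at 0.03 to 0.3 TPM. The members and lists were chosen with earlier results of these data known. Named members were those called, the next 6 by size of difference whose groups did not overlap, the 10 most abundant of each species and the most and least abundant of each role, and some others were named after their values were seen: eif1b and eif3c for their background, X. tropicalis members tested in le × ts, and the transcripts of eif2s1, eif3m, eif3f, eif4e2, eif5 and eif1b. Lists of egg RNAs, genome activation genes, later tissues and translation partners were counted. Alternatives were the pseudocount, the filter, normalization, adjustment, a replicate block, the transcript used and each library left out. No genome was used, so no positions or sequences are given.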

Additional observations from a re-analysis of the deposited data

Results flagged for a closer look

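In some initiation factors every library of 1 egg species moved 1 way and every library of the other egg species the opposite way, and the difference between the egg species was not tested. For the hybrid against its egg species this was so for 1 of 47 members tested in both (2.13%, against 2.22% of all symbols), eif2b3, at a log2 difference of -0.672 in X. laevis eggs and 0.163 in X. tropicalis eggs. For replicate 3 against replicate 1 it was so for 14 of 47 members (29.8%, against 18.6% of all symbols). The labels do not say that a replicate number means the same in both egg species. Exchanging 1 and 3 in 1 egg species would turn opposite directions into equal ones. The share is therefore a description of the numbering and not a result about the members. Direction was taken against 0, while the median over all symbols was -0.128 in X. laevis eggs and -0.047 in X. tropicalis eggs. In X. laevis eggs eif3k lay above that median. The values in X. laevis and X. tropicalis eggs were -0.486 and 0.034 for eif1ax, -1.12 and 0.102 for eif2ak2, -1.07 and 0.224 for eif2b1, 0.451 and -0.582 for eif2c1, -0.682 and 0.0621 for eif4a3 and -0.405 and 0.17 for eif4enif1. Among the eIF3 subunits they were 0.282 and -0.421 for eif3a, -1.03 and 0.216 for eif3c, -0.962 and 0.268 for eif3d, -0.452 and 0.115 for eif3g, -0.468 and 0.099 for eif3i, -0.114 and 0.1 for eif3k, -0.699 and 0.633 for eif3l and -0.623 and 0.686 for eif3m.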

How the results depend on the processing

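The results were recomputed with another pseudocount, filter, normalization, scaling or adjustment where it applied, with the most abundant transcript only between the species, with single transcripts only for replicate 3 against 1, and without each library only in the comparisons of groups. Over 54 member results with 559 alternative values, 506 kept their direction and their side of the threshold, 28 gained a call, 25 lost it and 0 changed direction. These results were picked for a call or for groups that did not overlap. That choice largely fixes the direction, and those of the hybrid comparisons had no call to lose, so the count is no separate support. In te × ls against X. tropicalis the X. laevis members called higher numbered 0, and 3 with the replicate block, 2 with all 4 groups in 1 fit and 3 with adjustment within each species. The main fit called 13.3% of all X. laevis symbols tested. Among the members tested only eif1, eif4a1 and eif5 had a log2 difference above 1, and they passed the main filter only through te × ls. For the counts in this section no share of all symbols under the same setting is given. None of them is read as a result about the members. The numbers 1 and 3 mark nothing that the labels name. The deviations of equally numbered libraries correlated at 0.753 for X. laevis and le × ts, 0.838 for X. tropicalis and te × ls and 0.00849 for the 2 species, and the replicate block gave 6 and 12 calls between the species and 0 among the other members of the hybrid comparisons. Between the species, without a limit on the fold 11 members were higher in X. laevis and 18 in X. tropicalis, and with the most abundant transcript 3 and 18. For replicate 3 against 1 in X. laevis eggs the 3 lower members became 1 without the filter, 0 with quantile normalization, 1 without the group covariate, 10 without a limit on the fold and 6 with single transcripts, and the 2 higher ones became 5 with single transcripts. In X. tropicalis eggs 17 and 9 were higher and lower without a limit on the fold. X. laevis members only in te × ls were 5 at a limit of 0.5 TPM and 0 at 5 TPM. The 5 do not include eif4a1, which had 0.564 TPM in X. tropicalis replicate 3. X. tropicalis members only in le × ts were 1 at 0.5 TPM, as with the groups exchanged, and 0 to 2 with a library left out, or 0 to 1 exchanged. With 2 libraries per group and no read numbers, members under a few TPM are limited by depth, most of all in le × ts replicate 3 and X. tropicalis replicate 3.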
